A study of Mus musculus with 6 samples.

Results

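The EGR and AP-1 immediate early factors are 10 genes for nuclear proteins of the response to growth signals: Egr1, Egr2, Egr3, Fos, Fosb, Fosl1, Fosl2, Jun, Junb and Ier2. They were taken by gene symbol from the 22482 genes of the deposited protein-coding table, where each symbol was found, and all 10 were among the 11612 genes expressed highly enough to be tested. RNA was measured in cultured C57BL/6 mouse aortic vascular smooth muscle cells (VSMCs), the muscle cells of the vessel wall, kept in DMEM with 10% fetal bovine serum. Of the 6 libraries, 3 are labelled Myocd knockdown (titles with ADV; an adenovirus against Myocd) and 3 are labelled control (titles with Ctrl; a negative control virus), collected after 48 h. The design text speaks of wildtype cells for the control group. If those cells had no virus, effects of virus and of Myocd cannot be told apart. No label ties a library to a culture or an animal of its own, and the spread that the p-values rest on may therefore be technical.

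Myocd encodes myocardin, a coactivator of serum response factor (SRF), and was the gene to be lowered. It did not go with the labels. Its level was 131.7, 130.1 and 145.5 FPKM (fragments per transcript length and library size, the authors' unit of level) in the libraries labelled knockdown, against 0.0355, 0 and 0.125 FPKM in those labelled control. Libraries are named here by label only, and a gene given below as lower in the libraries labelled knockdown was lower where Myocd RNA was higher. The depth was 7528154 to 9117649 estimated fragments in the libraries labelled knockdown and 9303510 to 9793781 in those labelled control, and knockdown 3 was the shallowest.

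Immediate early genes are transcribed without new protein synthesis when serum or a growth factor activates the MAP kinases. SRF with a ternary complex factor (Elk1, Elk3 or Elk4) is known to drive Fos, Egr1, Junb and Ier2 at such times, and myocardin is known to compete with ternary complex factors for the same surface of SRF. EGR proteins are zinc finger activators, held back by the corepressors Nab1 and Nab2. FOS and JUN proteins pair through leucine zippers into AP-1, which binds TGANTCA; FOS proteins need a JUN partner, whereas JUN proteins can also pair with each other. Their messages are short-lived.

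Of the 10 genes, 5 fell in the libraries labelled knockdown (Egr1, Egr2, Fos, Junb and Ier2), 0 rose and 5 did not pass (8 had an unadjusted p under 0.05). The test was limma with an intensity trend on log2(FPKM + 0.1), adjusted by Benjamini and Hochberg over all tested genes with a threshold of 0.05. In that test 1.61% of all tested genes were called lower and 1.83% higher. An unadjusted p under 0.05 was common, since Egr3, at 0.0434 in limma, ranked 2411 by p-value among the 11612 tested genes. Counts of genes with such a p, here and below, are to be read against at least that number. All 10 log2 fold changes were negative, as were 52.2% of those of all tested genes, and their median was -0.41 against -0.01 for all tested genes. In 7 of the 10 every library labelled knockdown lay below every library labelled control, which held for 15.6% of the tested genes. Summed over the 10 genes the level was 513.7 to 526.6 FPKM in the libraries labelled knockdown and 629.0 to 654.2 FPKM in those labelled control. Fewer cells that express a gene and less RNA per cell cannot be told apart in such bulk libraries.

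**Figure D1:**
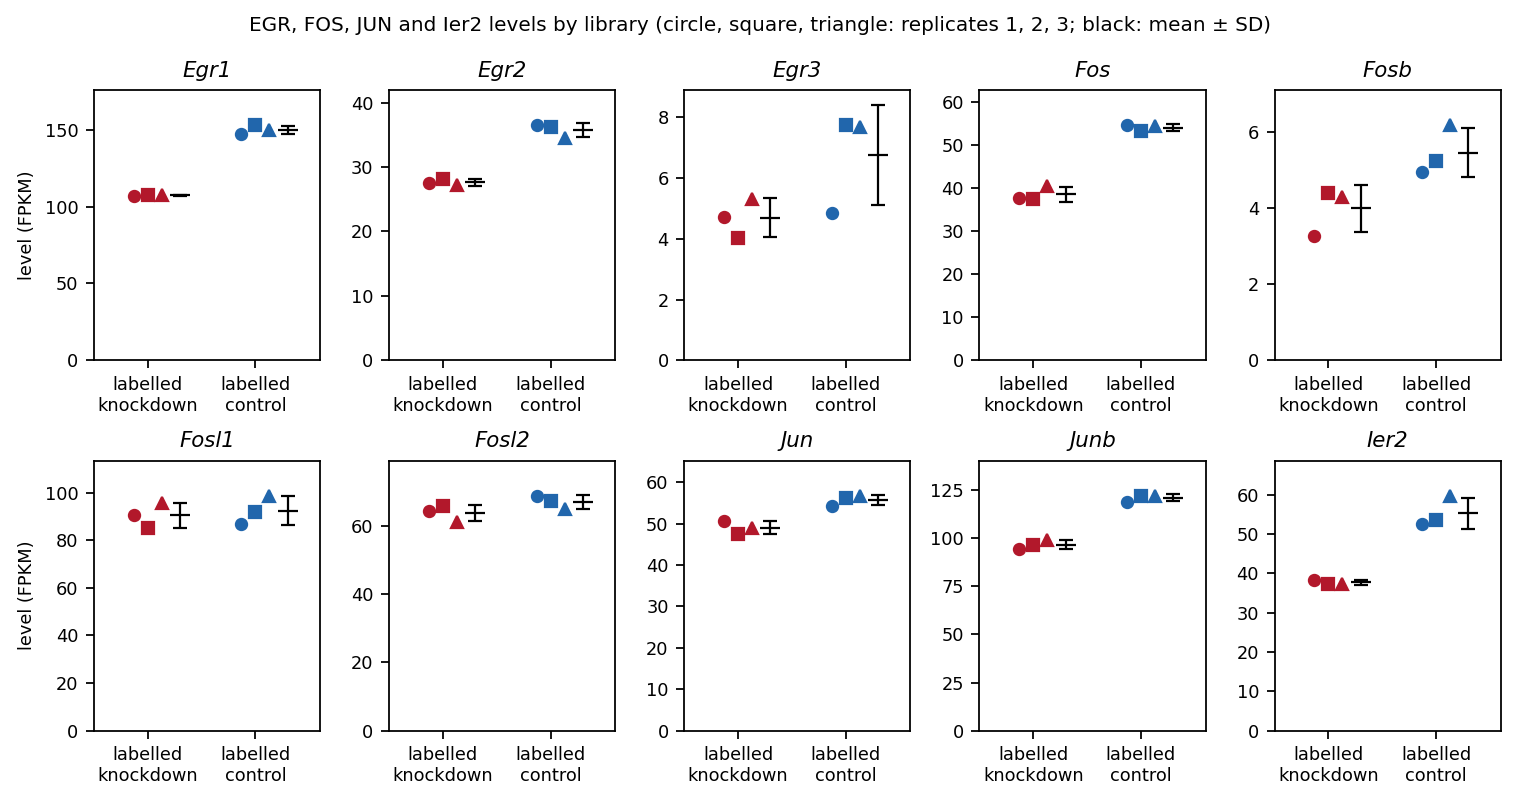
Level (FPKM, linear axis from 0) of each of the 10 genes in each library, with the 3 libraries labelled knockdown in red at the left and the 3 labelled control in blue at the right; the black marks give the mean ± SD. Egr1, Egr2, Fos, Fosb, Jun, Junb and Ier2 show no overlap between the groups, whereas Egr3, Fosl1 and Fosl2 do.

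Egr1 (ENSMUSG00000038418), the main EGR factor of growth-stimulated smooth muscle, had the highest level of the 10 genes in both groups. Its level was 107.0, 107.5 and 107.4 FPKM in the libraries labelled knockdown, against 147.3, 152.9 and 149.7 FPKM in those labelled control. The 3 lower values lay within 1 FPKM of each other, and a gap of 39.8 FPKM separated the groups. Behind them were 3433, 3385 and 2871 estimated fragments in the libraries labelled knockdown and 5130, 5006 and 4965 in those labelled control. The mean was 28.5% lower (107.3 ± 0.264 FPKM in knockdown-labelled libraries against 150.0 ± 2.78 FPKM in control-labelled ones, SD, n = 3 each; log2 fold change -0.48, SE 0.04, 95% interval -0.57 to -0.40, limma adjusted p = 0.00213). By p-value Egr1 ranked 11 among the 11612 tested genes. Permuting the 6 libraries for Egr1 alone gave an exact two-sided p of 0.1. That is the smallest value 3 against 3 libraries can give, and each of the 7 genes without overlap reached it.

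Egr2 (ENSMUSG00000037868; chromosome 10, 67535475 to 67542188, plus strand, mm10), known for its role in Schwann cell myelination and also serum-inducible, fell by a smaller share. It had 27.5, 28.2 and 27.2 FPKM in the libraries labelled knockdown, against 36.5, 36.2 and 34.5 FPKM in those labelled control. No library of one group reached the range of the other. The mean was 22.8% lower (27.6 ± 0.511 FPKM in knockdown-labelled libraries against 35.7 ± 1.07 FPKM in control-labelled ones; log2 fold change -0.37, SE 0.05, limma adjusted p = 0.0155), with 687 to 835 fragments in the libraries labelled knockdown and 1084 to 1195 in those labelled control. The limma call depended on which library was left out. Without knockdown 1, knockdown 2, control 1 or control 2 the limma adjusted p was 0.0654, 0.0643, 0.0753 or 0.0766. Without knockdown 3 or control 3 it was 0.0433 or 0.0366. The log2 fold change then stayed between -0.40 and -0.36 over the 6 fits that leave out a library, and edgeR on fragments called Egr2 in each of its own 6.

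Egr3 (ENSMUSG00000033730; chromosome 14, 70077445 to 70080157, plus strand, mm10), an EGR factor known from muscle spindle development, was far lower in level and did not pass. It had 4.72, 4.03 and 5.31 FPKM in the libraries labelled knockdown, against 4.86, 7.73 and 7.67 FPKM in those labelled control. Control 1 lay inside the range of the libraries labelled knockdown, and only 52 to 106 fragments stood behind each value. The log2 fold change was -0.50 with a 95% interval from -0.97 to -0.02 (limma adjusted p = 0.209), so a decrease as large as that of Egr1 and almost none were both within the interval. In both groups replicate 3 stood above the mean of replicates 1 and 2, by 0.28 on the log2 scale in the libraries labelled knockdown and by 0.32 in those labelled control. Egr4, the remaining EGR gene, was listed at 0 FPKM in all 6 libraries.

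Fos (ENSMUSG00000021250; chromosome 12, 85473890 to 85477273, plus strand, mm10), the founding AP-1 gene, fell. Its level was 37.7, 37.3 and 40.5 FPKM in the libraries labelled knockdown, against 54.5, 53.1 and 54.4 FPKM in those labelled control. The mean was 28.7% lower (38.5 ± 1.74 FPKM in knockdown-labelled libraries against 54.0 ± 0.761 FPKM in control-labelled ones; log2 fold change -0.49, SE 0.05, limma adjusted p = 0.00820). Fragments numbered 558, 590 and 567 in the libraries labelled knockdown and 835, 859 and 859 in those labelled control, and here the size of the change depended on the column used. Relative to each library's own total, the number of fragments per FPKM ranged over 18.7% of its mean for Fos, against 2.04% to 3.82% for the other 9 genes, and averaged 1.06 times as high in the libraries labelled knockdown as in those labelled control, against 1.01 times for the other 9. On the fragments edgeR gave a log2 fold change of -0.40 (SE 0.07, adjusted p = 0.00523), a smaller decrease that also passed.

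Fosb (ENSMUSG00000003545; chromosome 7, 19302721 to 19310045, minus strand, mm10), a close relative of Fos, was the lowest of the 10 genes. It had 3.28, 4.41 and 4.31 FPKM in the libraries labelled knockdown, against 4.95, 5.25 and 6.18 FPKM in those labelled control. The ranges were 0.541 FPKM apart. The log2 fold change of -0.45 (SE 0.15, 95% interval -0.81 to -0.08) did not pass in limma (adjusted p = 0.153) or in edgeR (adjusted p = 0.0575), with 128 to 169 fragments in the libraries labelled knockdown and 209 to 250 in those labelled control.

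The FOS-related genes Fosl1 (Fra-1) and Fosl2 (Fra-2), which lack the strong activation domain of Fos, showed much smaller differences. Fosl1 (ENSMUSG00000024912; chromosome 19, 5447703 to 5455945, plus strand, mm10) had 90.5, 85.3 and 95.4 FPKM in the libraries labelled knockdown, against 86.6, 92.0 and 98.7 FPKM in those labelled control, without a clear order. Fosl2 (ENSMUSG00000029135; chromosome 5, 32136173 to 32157831, plus strand, mm10) had 64.3, 65.7 and 61.1 FPKM in the libraries labelled knockdown, against 68.7, 67.2 and 64.7 FPKM in those labelled control. Both genes overlapped between the groups. For Fosl1 the log2 fold change was -0.03 with a 95% interval from -0.18 to 0.12 (limma adjusted p = 0.804), and it turned to 0.01 without knockdown 2 and 0.02 without control 3. For Fosl2 it was -0.07 with an interval from -0.18 to 0.04 (limma adjusted p = 0.422). At least 1314 fragments stood behind each value of either gene. The intervals of both genes lie above the estimate for Fos, and the difference was examined within each library. The ratio of Fos to Fosl1 was 0.417, 0.438 and 0.425 in the libraries labelled knockdown, against 0.629, 0.577 and 0.551 in those labelled control. The ratio of Fos to Fosl2 was 0.606 ± 0.050 in knockdown-labelled libraries against 0.808 ± 0.0277 in control-labelled ones. Neither ratio overlapped between the groups (exact permutation p = 0.1 each, the smallest possible). Both are ratios of FPKM and were not formed on fragments, on which the decrease of Fos was smaller.

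Junb (ENSMUSG00000052837; chromosome 8, 84976909 to 84978748, minus strand, mm10), a JUN protein known to temper the activity of Jun, was the second highest of the 10 genes. It reached 94.1, 96.5 and 99.0 FPKM in the libraries labelled knockdown, against 118.7, 121.7 and 121.9 FPKM in those labelled control. The mean was 20.1% lower (96.5 ± 2.45 FPKM in knockdown-labelled libraries against 120.8 ± 1.80 FPKM in control-labelled ones; log2 fold change -0.32, SE 0.04, limma adjusted p = 0.0106), and a gap of 19.7 FPKM lay between the groups. Without knockdown 1, knockdown 2, control 1 or control 2 the limma adjusted p was 0.0605, 0.0603, 0.0598 or 0.0606, while edgeR called Junb in all 6 of its fits without a library. With all 6 libraries but no intensity trend limma gave an adjusted p of 0.0575.

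Jun (ENSMUSG00000052684; chromosome 4, minus strand, mm10), the principal AP-1 partner of FOS proteins, differed by less. Its level was 50.7, 47.4 and 49.0 FPKM in the libraries labelled knockdown, against 54.3, 56.2 and 56.7 FPKM in those labelled control, with the ranges 3.65 FPKM apart. The log2 fold change of -0.18 (SE 0.05, 95% interval -0.29 to -0.08) did not pass in limma (adjusted p = 0.0778) and passed in edgeR (log2 fold change -0.17, adjusted p = 0.0267) and DESeq2 (adjusted p = 0.0257). With Jun added to the 5 others, 6 of the 10 genes fell in edgeR, where 4.5% of its 11563 tested genes were called lower. The same 6 fell in DESeq2, which left Egr3 without an adjusted p. There 4.19% of the 7714 genes with an adjusted p were called lower. EdgeR did not call Jun without knockdown 2 (adjusted p = 0.113), control 1 (0.0521), control 2 (0.0886) or control 3 (0.0661). The ratio of Junb to Jun was 1.97 ± 0.0984 in the libraries labelled knockdown and 2.17 ± 0.0180 in those labelled control. It did not overlap (exact permutation p = 0.1, the smallest possible).

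Ier2 (ENSMUSG00000053560; chromosome 8, 84661331 to 84662852, minus strand, mm10), a small nuclear protein of the immediate early response that belongs to neither family, had the largest relative decrease of the 10 genes by mean FPKM. It had 38.3, 37.3 and 37.4 FPKM in the libraries labelled knockdown, against 52.6, 53.4 and 59.7 FPKM in those labelled control. The coefficient of variation was 1.49% in the libraries labelled knockdown and 7.05% in those labelled control, with control 3 the highest. Each rests on 3 libraries with 451 to 897 fragments, and the difference in spread was not tested. The mean was 31.8% lower (37.7 ± 0.561 FPKM in knockdown-labelled libraries against 55.2 ± 3.89 FPKM in control-labelled ones; log2 fold change -0.55, SE 0.06, limma adjusted p = 0.00930).

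**Figure D2:**
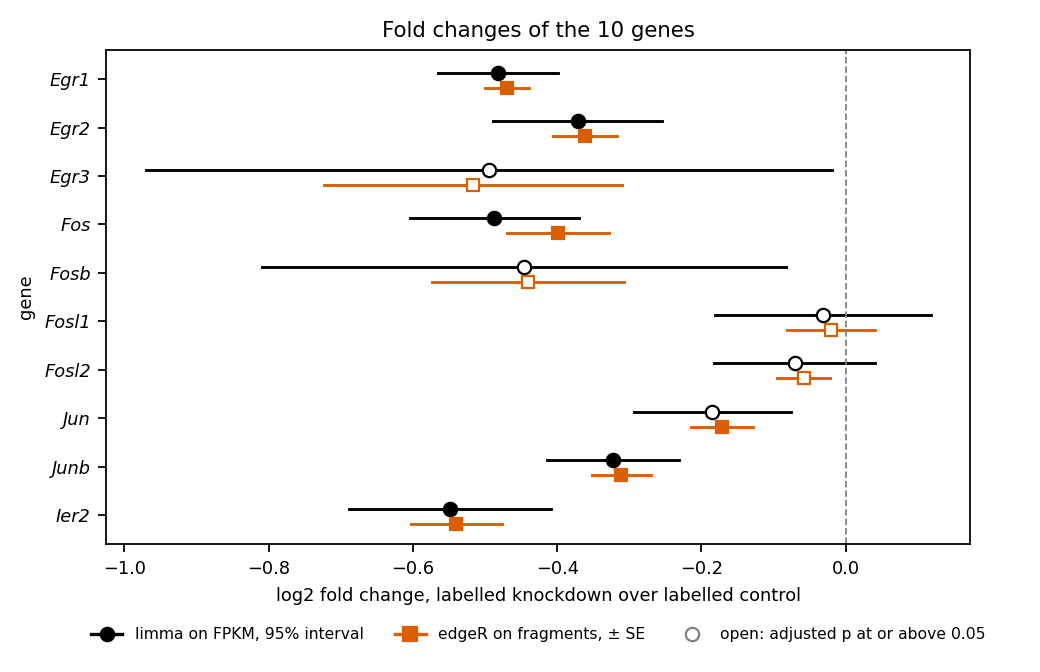
Log2 fold change of each gene (labelled knockdown over labelled control, 0 dashed) from limma on FPKM with its 95% interval (black circles) and from edgeR on estimated fragments ± SE (orange squares); open symbols did not pass an adjusted p of 0.05. Egr1, Egr2, Fos, Junb and Ier2 passed in both, Jun in edgeR, and Fosl1 and Fosl2 lay close to 0.

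Under 29 other ways of fitting the data (other pseudocounts, filters and scalings, the count tools, and libraries left out) Egr1, Fos and Ier2 passed each time, Egr2 in 24 and Junb in 23. Jun passed in 8, all of them on fragments, and Fosb in 2. Fosl1 and Fosl2 passed in 0 of 29 and Egr3 in 0 of 28.

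**Figure D3:**
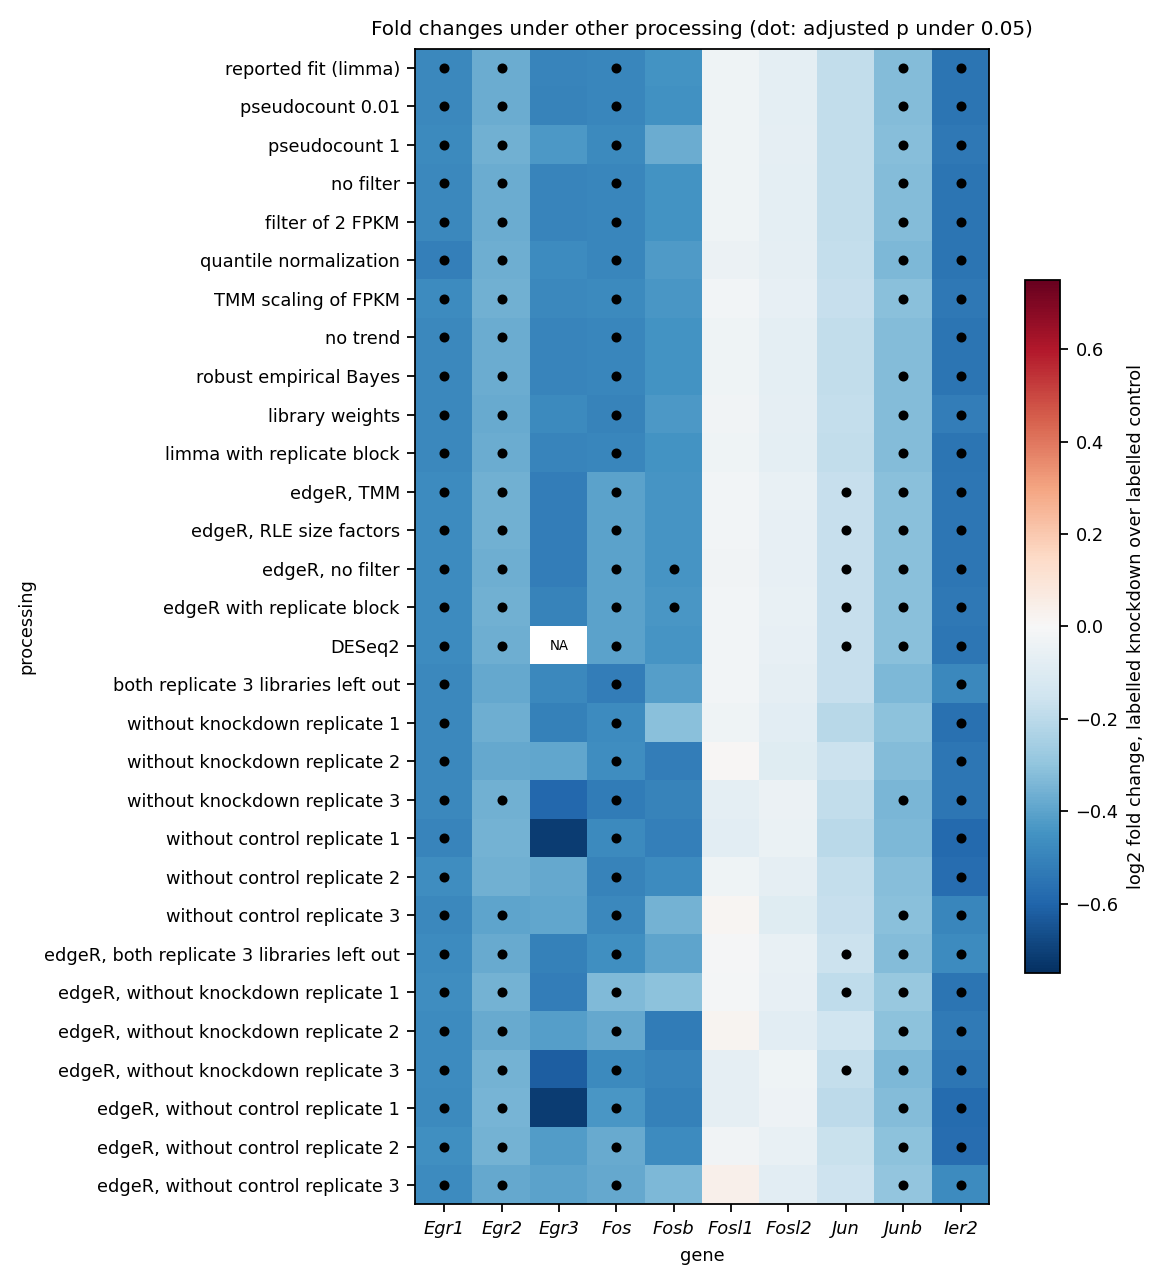
Log2 fold change (colour; blue is lower in the libraries labelled knockdown) of each gene (columns) under the reported fit and the other settings (rows), with a dot where the adjusted p was under 0.05 and NA where DESeq2 gave none. Egr1, Fos and Ier2 have a dot throughout, Egr2 and Junb lose it in limma when some libraries are left out, Junb also without the trend, and Jun has it in 8 fits on fragments.

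In order of level, the libraries labelled knockdown had Egr1, Junb, Fosl1, Fosl2, Jun, Fos, Ier2, Egr2, Egr3 and Fosb, 107.3 FPKM on average at the top and 4.0 FPKM at the bottom. Neighbours whose ranges overlapped were Junb with Fosl1, Fos with Ier2, and Egr3 with Fosb. Those labelled control had the same order except that Ier2 stood above Fos, and there Jun, Ier2 and Fos overlapped in turn, as did Egr3 and Fosb. Within a group the 10 genes varied with a median coefficient of variation of 3.47% in the libraries labelled knockdown and 3.0% in those labelled control. A wider set was the 8556 tested genes with a mean level between the lowest and the highest of the 10. Its medians were 6.73% in the libraries labelled knockdown and 6.45% in those labelled control. These genes were not matched to the 10 in level, so no conclusion on spread at a given level is drawn.

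**Figure D4:**
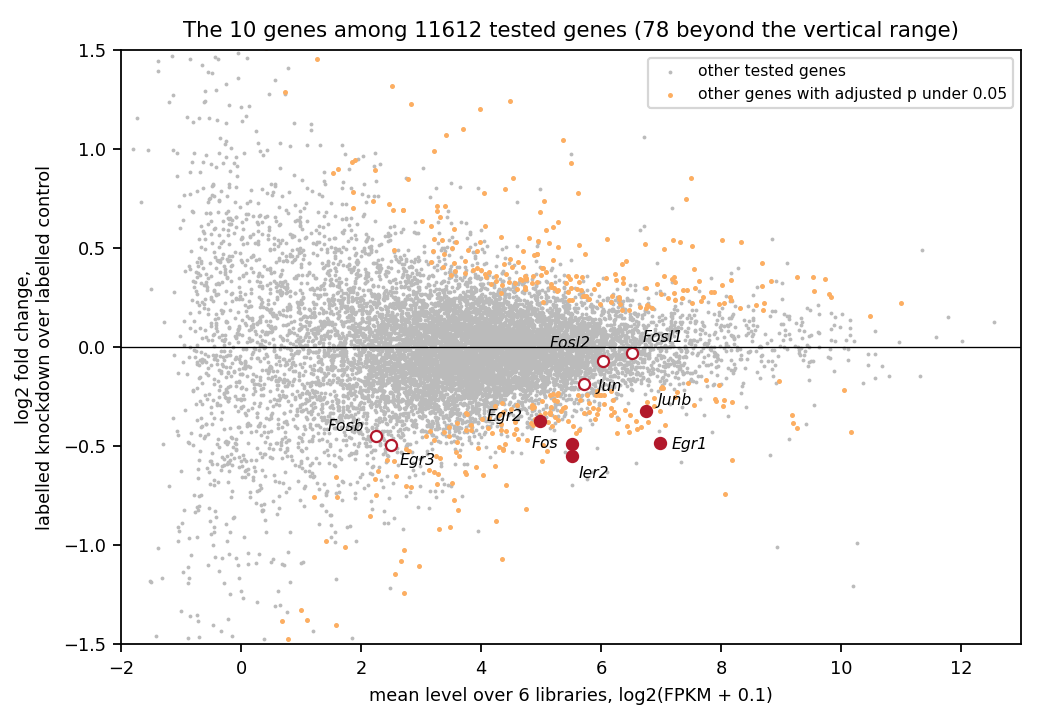
Log2 fold change (labelled knockdown over labelled control) against mean level, log2(FPKM + 0.1), over 6 libraries, for 11612 tested genes, of which 78 lie beyond the vertical range; the 10 genes are named, filled where the adjusted p was under 0.05. The 5 genes that fell sit toward the lower edge of the cloud at their level, and Fosb and Egr3 lie at low levels where the cloud is wider.

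The make-up of the family pools was read from FPKM only, on which the decrease of Fos was larger than on fragments. Shares within a pool depend on each other, so a lower level of 1 gene raises the shares of the rest. The 4 FOS genes summed to 196.6 ± 4.43 FPKM in the libraries labelled knockdown and 218.8 ± 4.70 FPKM in those labelled control. Fos made up 19.6% ± 0.463 of that pool in the libraries labelled knockdown and 24.7% ± 0.595 in those labelled control. Fosl1 took a larger share, 46.0% ± 1.58 in knockdown-labelled libraries against 42.2% ± 1.87 in control-labelled ones, although its own level did not pass. With Jund, the JUN genes summed to 165.3 ± 3.24 FPKM in the libraries labelled knockdown, 0.821 times the 201.4 ± 4.09 FPKM in those labelled control. Junb held 58.4% ± 0.826 of that pool in knockdown-labelled libraries against 60.0% ± 0.538 in control-labelled ones. The EGR pool was 139.6 ± 0.319 FPKM in knockdown-labelled libraries against 192.5 ± 4.12 FPKM in control-labelled ones, and Egr1 made up 76.9% ± 0.0940 of it in knockdown-labelled libraries against 77.9% ± 0.229 in control-labelled ones. The ranges of these 4 shares did not overlap between the groups (exact permutation p = 0.1 each, the smallest possible). For Fosl1, knockdown 2 (44.3%) and control 3 (44.1%) nearly met. The shares of Fosl2, Jund and Egr3 did overlap (exact permutation p = 0.3, 0.6 and 0.8).

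**Figure D5:**
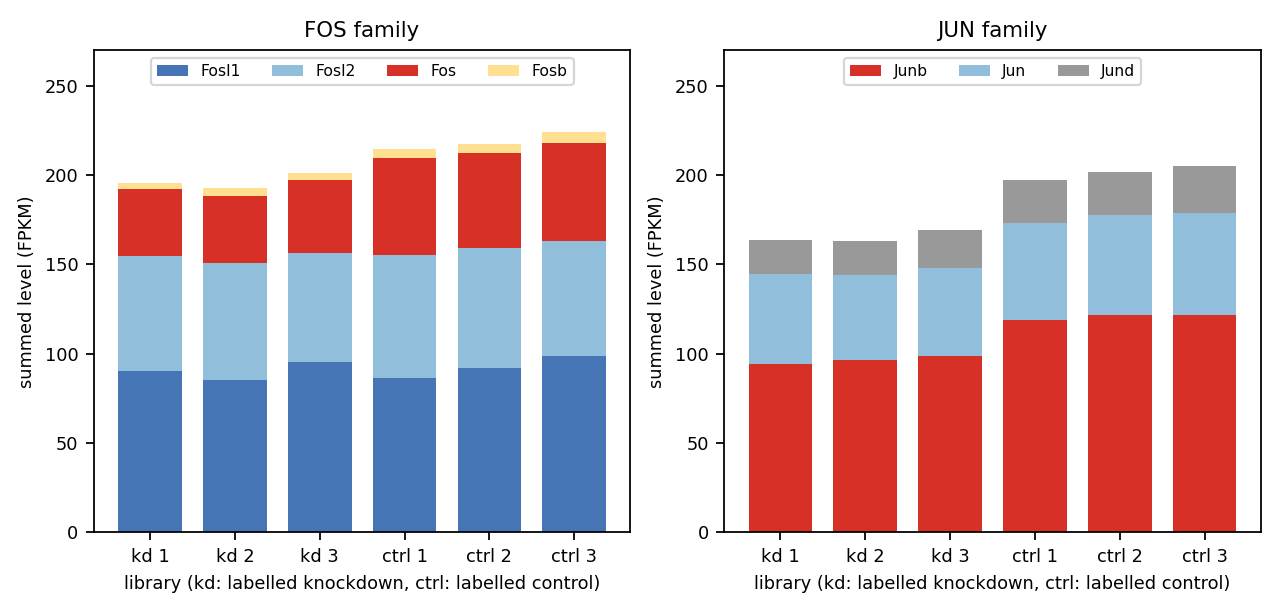
Summed level (FPKM, stacked from 0) of the FOS genes (left) and the JUN genes (right) in the libraries labelled knockdown (kd) and labelled control (ctrl). The Fos and Junb segments are smaller in each kd library, while the Fosl1 and Fosl2 segments are of similar height in all 6.

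Other genes of the pathway were read from lists chosen with earlier results of these data known. Of 11 tested AP-1 relatives and partners 1 rose, 0 fell and 10 did not pass, where limma called 1.83% of all tested genes higher and 1.61% lower. Jund, the JUN gene least dependent on growth signals, had 18.9, 19.3 and 21.1 FPKM in the libraries labelled knockdown, against 24.1, 23.7 and 26.7 FPKM in those labelled control. That difference did not pass in limma (log2 fold change -0.33, SE 0.07, adjusted p = 0.0586) and passed in edgeR (adjusted p = 0.0112). Atf3, a stress-induced repressor of the ATF family, had 16.0 ± 0.275 FPKM in knockdown-labelled libraries against 14.1 ± 1.81 FPKM in control-labelled ones (limma adjusted p = 0.305). The gene that rose was Atf7, a partner of JUN proteins, with 1.64, 6.52 and 0.957 FPKM in the libraries labelled knockdown, against 1.33e-12 FPKM or less in those labelled control (limma adjusted p = 0.0212). Values that small may be failed estimates. Atf7 met the filter only through the libraries labelled knockdown, where 3.1, 12.1 and 1.7 estimated fragments stood behind its values, so its call is no support for a change. It was lost with a pseudocount of 1 and in 5 of 6 limma fits without 1 library, and a filter of 2 FPKM or the one used with edgeR removed the gene.

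The regulators above and beside the 10 genes showed few calls. Among SRF and its cofactors, 7 tested genes, Myocd rose and 6 did not pass (3 of the 7 had an unadjusted p under 0.05). Myocd met the filter only through the libraries labelled knockdown, so its call is not counted as support. The cofactor gene Mkl2 had 13.8 ± 3.97 FPKM in knockdown-labelled libraries against 8.52 ± 1.29 FPKM in control-labelled ones (limma log2 fold change 0.66, adjusted p = 0.148). On fragments edgeR gave it -0.13 (adjusted p = 0.220), so its direction depended on the column used. Srf had 9.95 ± 0.444 FPKM in knockdown-labelled libraries against 8.59 ± 0.565 FPKM in control-labelled ones, without overlap (log2 fold change 0.21, SE 0.09, limma adjusted p = 0.205). The ternary complex factors Elk1 (8.12 FPKM in knockdown-labelled libraries against 8.75 FPKM in control-labelled ones), Elk3 (57.9 FPKM in knockdown-labelled libraries against 55.1 FPKM in control-labelled ones) and Elk4 (47.0 FPKM in knockdown-labelled libraries against 45.2 FPKM in control-labelled ones) all overlapped between the groups. Limma called 0 of 21 tested MAP kinase cascade genes, and their median log2 fold change was -0.02. In 3 of the 21 the unadjusted limma p was under 0.05, as in at least 2411 of the 11612 tested genes. EdgeR called 1 lower of 22, where 4.5% of all tested genes were called lower. The EGR corepressors did not pass either, with Nab1 at 36.5 ± 1.62 FPKM in knockdown-labelled libraries against 33.7 ± 1.33 FPKM in control-labelled ones and Nab2, itself an EGR1 target, at 54.8 ± 4.91 FPKM in knockdown-labelled libraries against 53.9 ± 2.02 FPKM in control-labelled ones. The ratio of Egr1 to Nab2 was 2.02, 2.10 and 1.78 in the libraries labelled knockdown, against 2.86, 2.77 and 2.73 in those labelled control. It did not overlap (exact permutation p = 0.1, the smallest possible) and mostly restates the difference of Egr1. The ratio of Egr1 to Egr3 did overlap, at 23.2 ± 3.28 in knockdown-labelled libraries against 23.2 ± 6.16 in control-labelled ones (exact permutation p = 0.8).

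Most other immediate early genes did not pass. Of 40 tested genes of that list 2 fell, 2 rose and 36 did not pass, with a median log2 fold change of -0.05. Of all tested genes limma called 1.61% lower and 1.83% higher. On fragments edgeR called 6 of the 40 lower and 3 higher, where 4.5% and 5.45% of all tested genes were called. The orphan nuclear receptor Nr4a1 fell, at 46.9 ± 1.87 FPKM in knockdown-labelled libraries against 59.0 ± 1.20 FPKM in control-labelled ones (log2 fold change -0.33, SE 0.05, limma adjusted p = 0.0191). So did the small GTPase gene Rhob, at 79.5 ± 3.39 FPKM in knockdown-labelled libraries against 100.7 ± 1.13 FPKM in control-labelled ones (limma adjusted p = 0.0141). Those that rose in limma were the matricellular gene Ctgf, at 34.4 ± 1.26 FPKM in knockdown-labelled libraries against 14.7 ± 3.47 FPKM in control-labelled ones (limma adjusted p = 0.0106), and the polo-like kinase gene Plk2, at 38.7 ± 1.53 FPKM in knockdown-labelled libraries against 29.7 ± 1.37 FPKM in control-labelled ones (limma adjusted p = 0.0221). Without the intensity trend Nr4a1, Rhob and Plk2 did not pass (limma adjusted p = 0.0619, 0.0613 and 0.0613), and with both replicate 3 libraries left out Nr4a1 and Rhob did not (0.0590 and 0.0695). None of these 4 genes passed in limma without knockdown 2, control 1 or control 2, and without knockdown 1 only Rhob did. Without control 3 Nr4a1 was lost as well.

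Genes described in textbooks as targets of these factors did not follow 1 direction. Of 14 tested AP-1 targets 3 rose, 1 fell and 10 did not pass, with a median log2 fold change of 0.07. Of all tested genes limma called 1.83% higher and 1.61% lower. In 6 of the 14 the unadjusted limma p was under 0.05, as in at least 2411 of the 11612 tested genes. EdgeR called 4 of the 14 higher and 2 lower, where 5.45% and 4.5% of all tested genes were called. The membrane protease Mmp14 rose to 86.0 FPKM in knockdown-labelled libraries against 73.9 FPKM in control-labelled ones, and the urokinase gene Plau to 24.8 FPKM in knockdown-labelled libraries against 19.7 FPKM in control-labelled ones (limma adjusted p = 0.0368 and 0.0376). Nqo1, a quinone reductase better known as a target of NRF2, fell to 42.9 ± 3.97 FPKM in knockdown-labelled libraries against 57.2 ± 3.57 FPKM in control-labelled ones (limma adjusted p = 0.0420). The calls of Mmp14, Plau and Nqo1 rest on all 6 libraries, since limma called none of them without any 1 library or without both replicate 3 libraries. Nor did they pass without the intensity trend (limma adjusted p = 0.102, 0.0725 and 0.0960), and Nqo1 did not with no filter on low values (0.0660). Of 13 tested EGR1 targets 1 rose, 0 fell and 12 did not pass, with a median of 0.05, beside the same limma shares of 1.83% and 1.61%. In 7 of the 13 the unadjusted limma p was under 0.05, to be read against the same number of all tested genes. In edgeR 3 of 12 rose and 0 fell, where 5.45% of all tested genes were called higher. The prostaglandin synthase Ptgs2 was the one that rose in limma (adjusted p = 0.0352). It stood at 211.3 ± 10.4 FPKM in knockdown-labelled libraries against 171.5 ± 8.50 FPKM in control-labelled ones. Ptgs2 did not pass in limma with no filter (adjusted p = 0.0551), without the trend (0.0999), with quantile normalization, or without any 1 library other than knockdown 3.

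The genes whose pattern over the 6 libraries was most like that of Egr1, among 8921 other genes that averaged 5 FPKM or more, were Pnpt1, Ipo13 and Ncapd2. Their Pearson correlations of log2(FPKM + 0.1) with Egr1 were 0.999, 0.995 and 0.994. For Fos they were Kif20a, Fasn and Atp6v0c, at 0.999, 0.998 and 0.997. These values mostly restate a difference between 2 groups with little spread within them, are over 6 libraries and the best of many candidates, and are given as a description. Pnpt1, a mitochondrial RNA exonuclease, was at 32.8 ± 0.146 FPKM in knockdown-labelled libraries against 38.0 ± 0.158 FPKM in control-labelled ones, and the mitotic kinesin Kif20a at 31.5 ± 0.794 FPKM in knockdown-labelled libraries against 39.8 ± 0.351 FPKM in control-labelled ones.

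Promoter windows from RefSeq (build GRCm38.p6, from 250 bases before to 50 after a transcript start) were used for 6 of the 10 genes: Egr2, Fos, Fosb, Fosl2, Jun and Junb. They are shown for 3 genes that fell and for Jun, so that the letters near the start can be compared. All run 5′ to 3′ on the gene's own strand, and capitals mark any match to a searched motif.
Egr2, chr10:67535249-67535548, plus strand: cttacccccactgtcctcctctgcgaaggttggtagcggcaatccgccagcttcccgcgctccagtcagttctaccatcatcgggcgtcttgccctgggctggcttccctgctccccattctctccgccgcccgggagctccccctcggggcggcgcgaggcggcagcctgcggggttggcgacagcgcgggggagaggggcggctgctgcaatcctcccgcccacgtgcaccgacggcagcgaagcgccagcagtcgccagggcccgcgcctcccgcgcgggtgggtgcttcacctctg
Fos, chr12:85473640-85473939, plus strand: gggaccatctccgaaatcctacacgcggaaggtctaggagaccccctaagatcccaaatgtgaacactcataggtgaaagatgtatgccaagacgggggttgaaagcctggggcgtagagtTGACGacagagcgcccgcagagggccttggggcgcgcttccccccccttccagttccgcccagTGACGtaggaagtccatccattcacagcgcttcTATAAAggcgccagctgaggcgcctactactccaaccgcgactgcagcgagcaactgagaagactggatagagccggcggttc
Junb, chr8:84978699-84978998, minus strand: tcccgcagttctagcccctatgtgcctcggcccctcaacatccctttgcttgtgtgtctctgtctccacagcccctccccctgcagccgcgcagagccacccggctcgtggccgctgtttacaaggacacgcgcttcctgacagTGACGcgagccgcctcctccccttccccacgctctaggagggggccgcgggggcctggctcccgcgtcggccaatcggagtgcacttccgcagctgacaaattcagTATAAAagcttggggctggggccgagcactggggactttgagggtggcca
Jun, chr4:95052173-95052472, minus strand: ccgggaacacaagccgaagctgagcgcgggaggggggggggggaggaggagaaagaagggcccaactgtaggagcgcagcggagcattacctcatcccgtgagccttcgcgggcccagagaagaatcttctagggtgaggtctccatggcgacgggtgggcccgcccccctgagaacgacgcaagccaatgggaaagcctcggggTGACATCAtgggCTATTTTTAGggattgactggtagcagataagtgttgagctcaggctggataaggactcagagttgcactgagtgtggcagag

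The motifs searched on both strands were the CArG box bound by SRF, the AP-1 element TGANTCA, the cyclic AMP element TGACGTCA, the EGR element GCGTGGGCG and TATAAA. None of the 6 windows held any of the first 4, which occur in 1.63%, 7.81%, 1.79% and 0.612% of the 32851 windows of the table. TATAAA, in 13.6% of all windows, was found in Fos with its first base 33 bases before the annotated start and in Junb at the annotated start itself. A further 3 motifs were added after the windows had been read. TGACG, a shortened cyclic AMP element that TGACGTCA contains, was found in Fos (2 matches), Fosb and Junb, against 20.8% of all windows. In Jun the window held TGACATCA (3.62% of all windows) with its first base 45 bases before the start, and a MEF2 box (0.557% of all windows) with its first base 33 bases before the start. A match here is a description of letters, and elements farther upstream or at other starts lie outside these windows. Egr2 had 5 windows, of which only the one nearest its deposited start was searched. The Fosl2 window, from 32136222 to 32136521, lies inside the gene's deposited span, which starts at 32136173.

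The Jun locus in the tables runs from 95049034 to 95167318 on chromosome 4 and also takes in BC042782, a long noncoding RNA gene (lncRNA) on the opposite strand. The libraries were made with a stranded kit, but whether the counting used strand is not given in the sources used here, so fragments of overlapping parts cannot be told apart with certainty. The lncRNA table pairs 4 transcripts with Fosl2, Jun or Junb, and 8 more overlap the Jun span. Of these 12 transcripts 7 were tested, limma called 0, and 4 had an unadjusted p under 0.05 (16.2% of the tested lncRNA transcripts). The natural antisense transcript of Jun (ENSMUST00000142292) had 0.905, 1.28 and 1.87 FPKM in the libraries labelled knockdown, against 0.335, 0.530 and 0.333 FPKM in those labelled control. These ranges did not overlap, at levels far below those of Jun, and the difference did not pass (log2 fold change 1.51, SE 0.37, limma adjusted p = 0.106). A transcript with a smaller p went in the other direction, ENSMUST00000156086 of 4930551L18Rik (limma adjusted p = 0.0966). It was listed at 0 FPKM in all 3 libraries labelled knockdown, against 0.178, 0.188 and 0.707 FPKM in those labelled control, through which alone it met the filter. Summed over its 8 transcripts BC042782 stood at 8.66 ± 1.37 FPKM in knockdown-labelled libraries against 6.00 ± 0.664 FPKM in control-labelled ones. Among the 4955 lncRNA transcripts tested, 4.26% were called.

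Markers were read for the labelled cell type and for others. Of 8 smooth muscle markers 6 were tested and 4 rose (Acta2, Myl9, Lmod1 and Des), while Cnn1 and Myh11, defining genes of contractile cells, stayed at or below 0.353 FPKM in every library. Lmod1 met the filter only through the libraries labelled knockdown (0.825, 0.791 and 0.583 FPKM, against 0.0673, 0.0711 and 0.0937 FPKM in those labelled control), so its call is not counted as support. Summed endothelial markers ranged over 1.3 to 2.41 FPKM in the libraries labelled knockdown and 0.468 to 1.07 FPKM in those labelled control, with Emcn listed at 0. Only 1 of 8, Vwf, was tested, and only through the libraries labelled knockdown, since each library labelled control was under 0.5 FPKM. It averaged 1.24 FPKM in knockdown-labelled libraries against 0.185 FPKM in control-labelled ones (limma log2 fold change 2.28, adjusted p = 0.0346). Its fragments were 22, 15 and 15 in the libraries labelled knockdown and 7, 6 and 13 in those labelled control, on which edgeR gave 1.16 and did not pass (adjusted p = 0.0869). Leukocyte markers summed to 20.6 to 24.5 FPKM in knockdown-labelled libraries against 22.4 to 26.5 FPKM in control-labelled ones with 0 of 3 tested called by limma (1 at an unadjusted p under 0.05), most of it Cd14, and Cd3e was listed at 0. Mesothelial markers summed to 302.2 to 324.7 FPKM in knockdown-labelled libraries against 320.0 to 351.5 FPKM in control-labelled ones with 0 of 2 tested called by limma (1 at an unadjusted p under 0.05), nearly all of it Krt19 and Msln. Fibroblast markers summed to 59.5 to 70.8 FPKM in knockdown-labelled libraries against 59.8 to 70.2 FPKM in control-labelled ones with 0 of 4 called by limma (1 at an unadjusted p under 0.05). EdgeR called 0 in these 3 lists. No adipocyte or Schwann cell marker was high enough to be tested, with Adipoq, Lep and Sox10 listed at 0. The part of these differences in the decrease of the immediate early genes was not tested.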

How the data were processed

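Gene levels were taken from 2 deposited tables, for protein-coding genes (22565 rows, summed to 22482 symbols) and for lncRNA transcripts (31550 distinct). The submitters' processing notes name HISAT2 2.0.4, cutadapt, Cuffdiff 2.2.1 and Cufflinks, and both mm10 and mm9. The starts of 6275 genes, with 1 added, equal the GRCm38 start in RefSeq, against 472 as given, so coordinates are written as mm10. Per the file headers the authors deposited FPKM values and counts per library. The deposited counts are estimated counts scaled per library by a constant; divided by it, 90.1% to 90.4% of values above 0 lay within 0.01 of a whole fragment.

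The main test was limma 3.58.1 (R 4.3.3, intensity trend) on log2(FPKM + 0.1) for genes with at least 0.5 FPKM (lncRNAs 0.1) in at least 3 of 6 libraries, two-sided, with group as the only term; such fold changes understate low genes. EdgeR 4.0.16 (quasi-likelihood) and DESeq2 1.42.0 were run on recovered fragments rounded to whole numbers. Scripts were tested on simulated data. The members, lists and motifs were chosen with earlier results of these data known. Genes named from a list are its called genes, up to 4 per direction, plus a fixed set of regulators. That set is Srf, Elk1, Elk3, Elk4, Jund, Atf3, Nab1 and Nab2. Mkl2 was named in addition because its FPKM and its fragments went in different directions. Of the AP-1 target list, 1 called gene is not reported here. All fold changes are labelled knockdown over labelled control.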

Additional observations from a re-analysis of the deposited data

How the results depend on the processing

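All 10 genes except Fosl1 kept their sign under the 29 other settings, with 28 for Egr3, which DESeq2 left without an adjusted p. Leaving out 1 library gave Fosl1 values of -0.077 to 0.017 in limma and -0.069 to 0.037 in edgeR, above 0 without knockdown 2 or control 3. Egr1, Fos and Ier2 passed in all 29 (highest adjusted p 0.0377, 0.0476 and just under 0.05), Egr2 in 24, Junb in 23, Jun in 8, Fosb in 2 and Egr3, Fosl1 and Fosl2 in 0. The number called lower was 4 without the trend (Junb lost), 3 in limma and 6 in edgeR with both replicate 3 libraries left out, between 3 and 5 when limma left out 1 library and between 5 and 6 when edgeR did; none was called higher in any. The count over all genes was 400 and moved to 144 without the trend, 624 with library weights, 1150 with edgeR (1153 with RLE size factors, 1168 with no filter), 723 with DESeq2, and 76 with both replicate 3 libraries left out (1508 with edgeR); the cause was not tested. Leaving out 1 library gave 44 to 178 in limma and 533 to 1085 in edgeR. Of uncalled regulators, Elk4 turned negative in edgeR with both replicate 3 libraries left out (-0.0055), and with 1 library left out ranged over -0.029 to 0.094. Nab2 turned negative with library weights (-0.0016) and with both replicate 3 libraries left out (-0.035 in limma, -0.023 in edgeR), and with 1 library left out ranged over -0.049 to 0.071. Calls of the named list genes that other settings ended are given beside them. With a pseudocount of 0.01, 1 of the lncRNA transcripts at these loci was called.

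The deviations of same-numbered libraries from their group means correlated at 0.037, -0.004 and 0.1 for numbers 1, 2 and 3. For differently numbered libraries these correlations ran from -0.088 to 0.059. Such values cannot decide whether the numbers pair the samples. With the replicate block limma called 243 genes and edgeR 1717, and no gene of the 10 called by limma lost its call, while Plk2, Mmp14 and Plau did (limma adjusted p = 0.0578, 0.0658 and 0.0758). Egr3 and Fosb had the fewest fragments of the 10 (52 to 250 per library); the part of depth in their missed calls was not tested. The edgeR fits with libraries left out, and the lncRNA settings, were chosen after seeing the data.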
